A study of Mus musculus with 7 samples.

Results

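Potassium channel genes were described in single nuclei of mouse lung tumors. The members are the genes whose name starts with Kcn, without the antisense and opposite-strand transcripts Kcnq1ot1, Kcnd3os, Kcnab3os, Kcnmb4os1 and Kcnmb4os2. They number 94 of the 56941 genes counted, and all 94 matched a gene of the GENCODE M39 annotation (GRCm39). By the proteins they encode, 30 are pore subunits of voltage-gated channels, 10 are silent voltage-gated subunits and 13 are accessory subunits of voltage-gated channels. A further 8 are pore subunits opened by calcium, sodium or pH, and 4 (Kcnmb1 to Kcnmb4) are accessory subunits of the calcium-activated BK channel. The last 15 and 14 are the inward rectifiers (Kcnj) and the K2P leak channels (Kcnk), whose subunits carry a pair of pore domains.

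Small cell lung cancer arose in 4 male mice after inhaled adenovirus had delivered Cre recombinase under a CMV promoter, which is not restricted to a cell type. RP1 and RP2 carried floxed Rb1 and Trp53 (Rb1 fl/fl, Trp53 fl/fl). RPC1 and RPC2 carried the same alleles and lacked Casp8, written Casp8-/- in the labels and made, per the study's methods, by a floxed allele that the same virus deleted. Casp8 encodes an initiator of programmed cell death, and the comparison of RPC with RP asks what goes with its loss. By design the tumors of all 4 animals therefore lacked Rb1 and Trp53. The genotypes are those of the labels. Per the study's methods the virus was given to young adult mice and the tumors were collected at the experimental endpoint. The age of each of these mice was not given in the sources used here. Each sequencing library pooled all 4 animals, so the animal was the replicate (n = 2 per genotype).

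After filtering, 8363, 8874, 10853 and 10164 nuclei of RP1, RP2, RPC1 and RPC2 remained, and no barcode occurred in 2 animals. The median nucleus held 2223 to 2255 transcripts in the RP animals and 2767 to 3392 in the RPC animals, and the ribosomal RNA Rn18s-rs5 took 8.49 to 9.99% of transcripts in RP and 3.09 to 5.35% in RPC. Tumor-like nuclei were those of clusters in which no marker list of another class stood out. The median level of 14 neuroendocrine marker genes also had to exceed that of the pooled nuclei named as another class (79.3 CPM). CPM are counts of a gene per 1000000 counts of the class. This median was 106 to 173 CPM in the tumor-like clusters. It lay in the same range in the T or NK cell-like cluster (125 CPM) and in a B cell-like cluster (118 CPM). In the other named non-tumor clusters it was lower. In the larger endothelial-like cluster, at 105.88 CPM, it was almost level with the lowest tumor-like cluster (106.43 CPM). The neuroendocrine level alone therefore does not separate tumor-like nuclei from each other class. Tumor-like nuclei were 32281 of 38254 (84.39%) and held 27536983, 27508370, 52942801 and 45498629 transcripts. All 14 markers were detected in the tumor-like nuclei of each animal, but also in the endothelial-like and alveolar type 2-like nuclei of each animal. Their summed level in tumor-like nuclei was 4879, 4152, 5734 and 6110 CPM. The endothelial marker list summed to 761 and 912 CPM in the tumor-like nuclei of the RP animals and to 2200 and 1336 CPM in those of the RPC animals. Whole-gene counts of Casp8 include parts outside the deleted stretch and therefore do not check the genotype. In tumor-like nuclei it had 57.1, 60.3, 91.8 and 66.8 CPM. Here and throughout, 4 values without names are those of RP1, RP2, RPC1 and RPC2.

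Potassium channels let potassium leave the cell and hold the membrane voltage negative. Voltage-gated pore subunits open on depolarization and end action potentials, silent subunits work only as partners of Kcnb subunits, and calcium-activated channels couple the voltage to the calcium inside the cell. Inward rectifiers and K2P channels set the resting voltage. Small cell lung cancer is a neuroendocrine tumor whose cells are electrically excitable, and potassium channels take part in shaping that activity.

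What makes a pore subunit a potassium channel is the selectivity filter, a short loop that lines the narrowest part of the pore. Its core was searched in the coding strand of the GENCODE M39 coding sequences, in frame, as 5 codons in a row: a threonine codon (ACN), a codon with T in the middle such as those of isoleucine and valine (NTN), a glycine codon (GGN), a codon that starts with T such as those of tyrosine and phenylalanine (TNN), and another glycine codon. The motif was found in 187 of 21770 coding sequences (0.86%) and in 64 of the 94 members. It was present in all 10 silent subunits, 14 of 15 inward rectifiers, 23 of 30 voltage-gated pore subunits and 5 of 8 calcium-, sodium- or pH-activated subunits, and in none of the 13 and 4 accessory subunits. The 7 voltage-gated pore subunits without it were Kcnh1, Kcnh2, Kcnh3, Kcnh4, Kcnh6, Kcnh7 and Kcnh8. Of the 14 K2P genes, 10 held it 2 times, 2 held it 1 time and 2 did not hold it. Only this pattern was searched, so a pore subunit without a match is not shown to lack a filter. Whether a match lies in the loop of the pore was not checked. The stretches below, in GRCm39 and from 5′ to 3′ on the coding strand, are shown for 5 members on which the results turn, with the motif in capitals.
Kcnma1, chr14:23578460-23578516, minus strand, exon 8: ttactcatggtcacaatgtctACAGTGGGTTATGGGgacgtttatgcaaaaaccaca
Kcnb2, chr1:15780249-15780305, plus strand, exon 3: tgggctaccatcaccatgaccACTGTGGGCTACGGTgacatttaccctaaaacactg
Kcnj6, chr16:94633615-94633671, minus strand, exon 3: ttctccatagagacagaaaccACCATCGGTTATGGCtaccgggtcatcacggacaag
Kcnk3, chr5:30779525-30779581, plus strand, exon 2: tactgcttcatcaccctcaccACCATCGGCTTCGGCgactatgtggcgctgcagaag
Kcnk13, chr12:100027614-100027670, plus strand, exon 3: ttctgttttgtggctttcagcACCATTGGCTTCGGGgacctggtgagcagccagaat
For Kcnk3 and Kcnk13 the second of 2 matches is shown. The motif of Kcnd2 spans 2 exons and is not printed.

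The question of which potassium channels these tumors transcribe was addressed with the summed counts of tumor-like nuclei per animal, scaled to CPM after TMM normalization. Voltage-gated pore subunits held most of the potassium channel transcripts, at 5492, 5445, 5454 and 6531 CPM of a sum over all members of 8049, 8583, 8730 and 10745 CPM. Of the 94 members, 36 had a mean of at least 10 CPM over the 4 animals and 21 of at least 100 CPM. The 5 members with the highest CPM took 52.02% of all member CPM. Kcna4 was the 1 member with no transcript in tumor-like nuclei. At the other end, 71 members had counts high enough to be tested, and the 23 others had at most 34 transcripts in all 4 animals together.

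**Figure D1:**
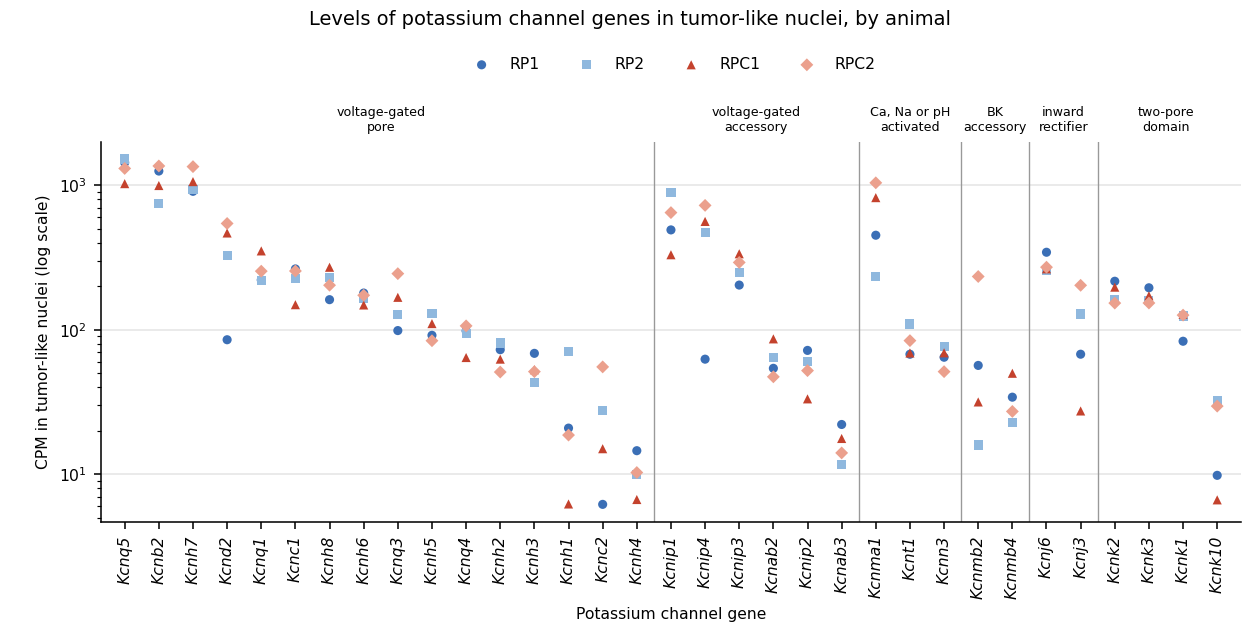
Levels of 33 of the 36 members with a mean of at least 10 CPM in tumor-like nuclei, ordered by family and mean level; each mark is 1 animal and the vertical axis is CPM on a log scale. Kcnq5, Kcnb2 and Kcnh7 stand highest, and the marks of Kcnd2, Kcnip4, Kcnmb2, Kcnj3, Kcnh1 and Kcnc2 spread far more than those of Kcnh6 or Kcnk3.

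The 3 highest members by CPM were voltage-gated pore subunits. Kcnq5, which forms the slow M current together with other Kcnq subunits, had 1434, 1519, 1025 and 1306 CPM. Kcnb2, a delayed rectifier and partner of the silent subunits, had 1253, 752, 995 and 1358 CPM. Kcnh7, of the ERG family, had 907, 937, 1059 and 1344 CPM. The lowest of these values was that of Kcnb2 in RP2, and none of the 3 genes was low in any animal.

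These genes span long stretches of the genome, and nuclear libraries count intronic reads, so that levels were also compared per 10 kb of gene span. On that scale the ERG-family gene Kcnh6 was highest with a mean level of 60.6 CPM per 10 kb. Among the 10 highest, Kcnk3, an acid-sensitive leak channel, had 44.2, and Kcnip3, an accessory subunit that also binds DNA as DREAM, had 41.2. Kcnc1, a fast-spiking voltage-gated pore subunit, had 36.9 CPM per 10 kb, and the leak channel Kcnk1 had 32.4. Kcnh3, another relative of the ERG channels, had 29.2 CPM per 10 kb and Kcnb2 had 24.9. Kcnb2 was the 1 gene among the 3 highest by CPM that was also among the 10 highest per length, and Kcnq5 had 23.4 CPM per 10 kb. Kcnma1, with 636 CPM on average, had 8.77 CPM per 10 kb, and Kcnip4, with 454 CPM, had 4.00.

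Among the other families, the inward rectifiers were represented mainly by Kcnj6 and Kcnj3, subunits of the channel that G proteins open. Kcnj6 had 344, 256, 264 and 271 CPM, and no other inward rectifier except Kcnj3 had a mean of 10 CPM. The ATP-sensitive channel subunit Kcnj11 had 2.25, 2.94, 1.27 and 3.07 CPM, while its partner Abcc8, which is not a member, had 39.9, 38.7, 57.9 and 51.7 CPM. Of the K2P channels, Kcnk2 (217, 161, 197 and 153 CPM), Kcnk3 (195, 160.1, 172 and 153 CPM) and Kcnk1 (83.3, 125, 128 and 126 CPM) had a mean of at least 100 CPM. No silent subunit reached a mean of 10 CPM, and their sum was 4.80, 9.39, 4.77 and 8.15 CPM. The 5 Kcne genes in the tables, small accessory subunits, were not tested for low counts, and the highest of them, Kcne2, had a mean of 0.173 CPM.

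The comparison of RPC with RP in tumor-like nuclei asks which channels go with the loss of Casp8. With edgeR and Benjamini-Hochberg adjustment over all genes, 0 of 71 members had an adjusted p under 0.05, and so had 0.0% of the 20110 genes tested. Over all genes, no adjusted p was below 0.1532. Before adjustment, 3 members were higher in RPC at p under 0.05 (4.23%; 7.45% of all genes), and 3 were lower (4.23%; 7.7% of all genes). The 2 RPC animals lay above both RP animals for 14 members (19.7%; 24.8% of all genes) and below both for 12 (16.9%; 25.6% of all genes), in all 26 members (36.6%; 50.4% of all genes). The median log2 fold change was -0.13 over the tested members and -0.01 over all genes tested. DESeq2, the tool of the study, gave 1 member with an adjusted p under 0.05 that was higher in RPC, Kcnma1, of the 62 to which it assigned an adjusted p (1.61%; 1.91% of all genes), and 0 lower (1.72% of all genes). The counts at an unadjusted p changed with single animals. Without RP1 they were 3 higher and 3 lower (3.58 and 4.19% of all genes), and without RP2 8 and 0 (4.72 and 5.15%). Without RPC1 they were 7 and 1 (4.89 and 4.96%), and without RPC2 7 and 7 (8.93 and 8.25%).

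The 1 member that rose by DESeq2 was Kcnma1, the pore subunit of the BK channel, which opens on calcium and depolarization together. Its level was 451, 233, 820.2 and 1039 CPM, so both RPC animals lay above both RP animals. The mean was 342 ± 154 CPM in RP and 929 ± 154 CPM in RPC (SD, n = 2 each). The log2 fold change was 1.44 (SE 0.35), with an adjusted p of 0.27 by edgeR and of 0.008007 by DESeq2. It was between 1.05 and 2.00 when each animal was left out in turn, and between 1.42 and 1.54 within each of the 7 sublibraries, which split the nuclei of the same animals. For shares of nuclei, those with fewer than 1000 transcripts were left out and each other nucleus was thinned to 1000 transcripts. After this, 31.7% of nuclei in RP1 (95% exact binomial interval 30.6 to 32.9), 16.7% in RP2 (15.8 to 17.7), 51.9% in RPC1 (50.8 to 52.9) and 53.7% in RPC2 (52.6 to 54.8) had a Kcnma1 transcript. These intervals cover counting error only. Without thinning the shares of the same nuclei were 57.1, 35.8, 82.0 and 77.8%, at median depths of 2582, 2507, 3371 and 2961 transcripts. Macrophage-like nuclei, thinned alike, gave 8.54, 1.32, 7.34 and 9.68%. Summed counts alone do not tell fewer nuclei with a gene from fewer transcripts in each, and for Kcnma1 the share of nuclei and the level ranked the RP animals alike, with RP2 lowest.

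The other members at an unadjusted p under 0.05 had log2 fold changes closer to 0 than that of Kcnma1. Kcnq3, which pairs with Kcnq5 in the M-current channel, had 98.7, 127, 168 and 244 CPM (log2 fold change 0.87, SE 0.24, edgeR adjusted p = 0.28). Both RPC animals lay above both RP animals for Kcnq3. Its partner Kcnq5 was lower in both RPC animals than in the RP animals, with a log2 fold change of -0.34 (SE 0.19, edgeR adjusted p = 0.44). Kcnip3, the accessory subunit named above, had 204, 249, 335 and 292 CPM (0.47, SE 0.17, edgeR adjusted p = 0.31). Kcnh2, the ERG channel, had 72.8, 80.9, 62.6 and 51.0 CPM (-0.44, SE 0.17, edgeR adjusted p = 0.33). For both genes, RP and RPC animals fell into separate ranges. Kcng1, a silent subunit, rested on 10, 9, 6 and 7 transcripts, and its log2 fold change of -1.42 (SE 0.47) ran from -2.13 to 0.55 within sublibraries.

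**Figure D2:**
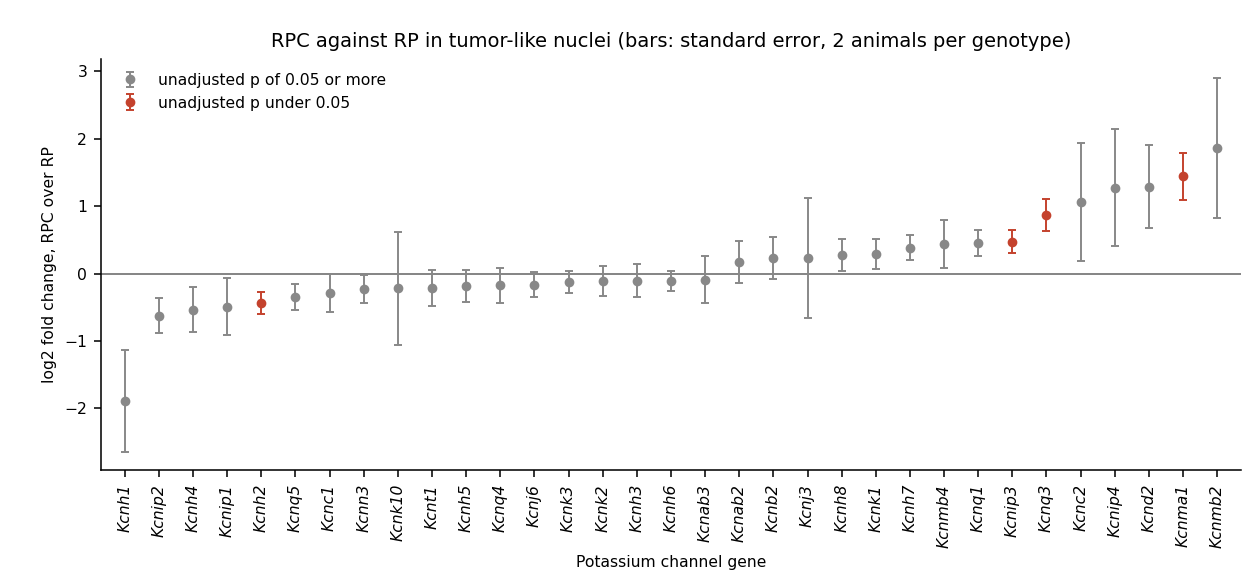
Log2 fold change of RPC over RP (edgeR, tumor-like nuclei) of 33 of the 36 members with a mean of at least 10 CPM, with bars of ±1 SE; red marks have an unadjusted p under 0.05 and the horizontal line is no change. The marks lie on both sides of the line, and Kcnma1 stands highest among the red ones at 1.44.

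Kcnd2, a pore subunit of the fast A-type current, is named in the study from these samples. It had 85.3, 328, 467 and 543 CPM. Both RPC animals lay above both RP animals, and the log2 fold change was 1.29 (SE 0.61, edgeR adjusted p = 0.38). RP1 set much of this value, since the log2 fold change was 0.62 without RP1 and 2.57 without RP2. Kcnip4, an accessory subunit that binds Kcnd channels, was looked at after its values were seen and had the same order of animals, with 62.6, 469, 561 and 725 CPM (log2 fold change 1.27, SE 0.87, edgeR adjusted p = 0.51). Without RP1 it was 0.46 and without RP2 3.36. A Kcnip4 transcript was found in 4.54, 21.9, 26.3 and 32.0% of the thinned tumor-like nuclei. Of the other Kcnip genes, Kcnip1 (491, 886, 330.2 and 646 CPM) and Kcnip2 (72.0, 59.9, 33.3 and 52.2 CPM) did not follow this order. Kcnip3, with 204, 249, 335 and 292 CPM, differed from it only in that RPC1 lay above RPC2.

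The spread between animals of the same genotype was described on log2 of CPM plus 0.5, for the members beside all genes. The larger distance within a genotype exceeded the distance between the genotype means in 50 of 71 members (70.423%) and in 62.795% of all genes tested. Because the larger of 2 distances between single animals is set against a distance between means, a majority on this side is no result by itself. The median distance within a genotype was 0.58 over the members and 0.38 over all genes, while the median distance between the means was 0.30 and 0.28. With the same 0.5 CPM added, the highest animal was at least 4 times the lowest in 10 members (14.085%), against 3.65% of all genes. With nothing added it was so in 14 members (19.718%) and 9.329% of all genes, a lowest animal at 0 included. Among genes whose average log2 CPM was 3 or more, this held for 8 of 38 members (21.053%) and 3.923% of the genes. The 10 members, listed after their values were seen, were Kcnc2, Kcnd2, Kcnh1, Kcnip4, Kcnj1, Kcnj3, Kcnk10, Kcnma1, Kcnmb2 and Kcns3, and each of the 7 families has at least 1 of them. RPC2 was the highest animal in 6 of them, RP2 in 3 and RPC1 in 1.

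**Figure D3:**
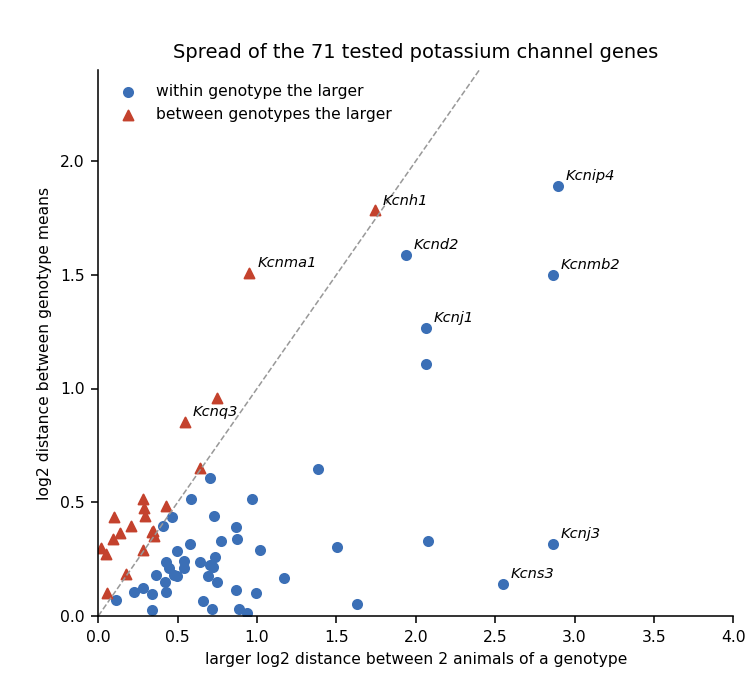
Distance between animals of a genotype (horizontal axis, the larger of both genotypes) against distance between the genotype means (vertical axis), both on the log2 scale in tumor-like nuclei, for the 71 tested members; the dashed line marks equal distances. Most members (50) lie below the line, while Kcnma1 lies above it.

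For some members the difference between animals ran through all large tumor-like clusters of an animal. Kcnmb2, an accessory subunit that inactivates the BK channel, had 56.6, 16.0, 31.7 and 233 CPM, and the highest animal, RPC2, was 4.12 times the next, the 1 member at or past a factor of 4 (1.408%; 0.398% of all genes with 0.5 CPM added, 0.656% without). The log2 fold change of 1.87 (SE 1.04, edgeR adjusted p = 0.43) became -0.18 without RPC2. In the 4 clusters with at least 500 nuclei of RPC2 Kcnmb2 had 182 to 269 CPM on sums without TMM scaling, and in such clusters of the other animals at most 78.6 CPM. RPC1 thus had a high level of the pore subunit Kcnma1 without a high level of Kcnmb2. Kcnj1, the renal ROMK channel, was highest in RPC1 (1.69, 6.16, 18.3 and 3.99 CPM), at 12.3 to 22.2 CPM in its 3 largest clusters. Kcnh1, a voltage-gated pore subunit of the EAG family, was highest in RP2 with 20.9, 71.0, 6.23 and 18.7 CPM (log2 fold change -1.88, SE 0.76, edgeR adjusted p = 0.33). Its log2 fold change was -0.74 without RP2 and -2.87 without RPC2. Both large clusters of RP2 held 66.3 and 77.8 CPM of Kcnh1.

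Other members differed between clusters of the same animal. These clusters were built without the Kcn genes, and the values are descriptions. In RP1, a cluster of 870 nuclei led by Luzp2 and Thbs1 had 1776 CPM of Kcnip1 against 475 CPM over all tumor-like nuclei of RP1, and 36.6 against 9.51 CPM of Kcnk10, a mechanically gated leak channel. The same cluster held most tumor-like nuclei of RP2 (4433), where Kcnip1 had 1020 CPM. In RPC2, a cluster of 3140 nuclei led by Gria1 and Zfpm2 had 1415 CPM of Kcnma1, 1068 CPM of Kcnip4 and 319 CPM of Kcnj3. A second RPC2 cluster of 2370 nuclei led by Dmc1 and Tex14 had 539, 255 and 92.3 CPM of the same genes, so Kcnma1, Kcnip4 and Kcnj3 were all lower in it. The voltage-gated genes Kcnq5 and Kcnb2 differed less between these clusters, with 1396 against 1463 CPM and 1374 against 1657 CPM.

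A cluster of 643 nuclei led by Grik2, Lrrtm4, Erbb4 and other genes of neurons lay mainly in RPC1 (585 nuclei). In RPC1 it held 77.81% of all Kcnj3 transcripts of tumor-like nuclei, at 189 CPM against 7.70 and 5.60 CPM in the 2 larger clusters of that animal. It also held 48.54% of those of Kcnc2, a fast-spiking subunit, at 64.6 CPM against 7.67 and 7.22. Kcnma1 was lower in it than in the larger clusters, at 594 against 886 and 863 CPM. Without these nuclei the number of members with an edgeR adjusted p under 0.05 was again 0, as it was for all genes.

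Levels in the other classes of nuclei were described on sums without TMM scaling. Each class was named by its markers, and classes were not tested against each other because the names come from the same nuclei. Tumor transcripts were present in them. The summed neuroendocrine markers were 2935 to 4959 CPM in endothelial-like, 3104 to 4610 CPM in T or NK cell-like and 2561 to 4802 CPM in B cell-like nuclei. They were 1796 to 2759 CPM in alveolar type 2-like, 719 to 1555 CPM in macrophage or monocyte-like and 676 to 1288 CPM in club-like nuclei. The level of Kcnma1 followed the same split, with a mean of 640 CPM in tumor-like, 478 in endothelial-like and 475 in B cell-like nuclei, but 81.0 in macrophage-like and 60.8 in club-like nuclei. The levels of Kcnip4 and Kcnq1 did not. How much of these levels is RNA carried over from tumor nuclei was not tested.

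Several members were far higher in a non-tumor class than in tumor-like nuclei. Kcnk13, a leak channel, had 189, 116, 206 and 212 CPM in macrophage-like nuclei and a mean of 2.16 CPM in tumor-like nuclei. In both macrophage-like clusters it was above the tumor-like mean in every animal, at 207 to 357 CPM in the cluster led by Ms4a7 and 30.2 to 88.9 CPM in that led by Chil3, a gene of alveolar macrophages. Kcnk6, another leak channel, averaged 27.1 CPM in macrophage-like and 1.54 CPM in tumor-like nuclei. Kcnn4, the calcium-activated channel of lymphocytes and red cells, had 29.5, 75.1, 103 and 52.6 CPM in T or NK cell-like nuclei, a mean of 15.6 CPM in B cell-like nuclei and of 0.819 CPM in tumor-like nuclei. These rested on 45 and 20 transcripts. Kcnk5, an alkaline-activated leak channel, had 22.1, 35.2, 11.7 and 7.00 CPM in B cell-like nuclei, from 26 transcripts, and a mean of 1.25 CPM in tumor-like nuclei.

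In epithelial classes, Kcnj15, an inward rectifier, had 904, 314, 370.1 and 528 CPM in club-like nuclei and 279, 451, 558 and 550.1 CPM in alveolar type 2-like nuclei. In alveolar type 1-like nuclei its mean was 44.2 CPM, and in tumor-like nuclei 1.63 CPM. Kcnq1, which recycles potassium in secretory epithelia, averaged 627 CPM in club-like, 384 CPM in endothelial-like and 263 CPM in tumor-like nuclei. Kcnk12, a silent K2P gene, averaged 42.6 CPM in ciliated-like nuclei, of which 2 animals had at least 20, and 5.29 CPM in tumor-like nuclei. RP1 had fewer than 20 club-like nuclei.

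A cluster of 387 nuclei led by Csmd1 and Prkg1 scored highest for smooth muscle or pericyte markers. The fibroblast markers summed to 1822, 1883, 1347 and 745 CPM in it and the smooth muscle or pericyte markers to 1579, 888, 1359 and 613 CPM, so the sums do not bear out that name and it is called here by its leading genes. At a clustering resolution of 0.8 the cluster with nearly the same leading genes scored highest for the fibroblast list. In this cluster Kcnab1, an accessory subunit of Kcna channels, averaged 84.6 CPM and was highest in RP1 with 186 CPM, and Kcnt2, a sodium-activated pore subunit, averaged 26.6 CPM. The tumor-like means were 3.30 and 1.09 CPM. In mesothelial-like nuclei, of which 1 animal had at least 20, Kcnab1 averaged 192 CPM and Kcnd3, an A-type pore subunit, 98.0 CPM against 6.98 CPM in tumor-like nuclei. Kcnd3os, on the strand opposite Kcnd3, had at most 0.0734 CPM in tumor-like nuclei. No member was at least 2 times its tumor-like level in the endothelial-like nuclei of every animal. Kcnh1, looked at after its values were seen, had 99.0, 126, 30.9 and 49.7 CPM there, which is 1.79 to 4.90 times the tumor-like level of the same animal.

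**Figure D4:**
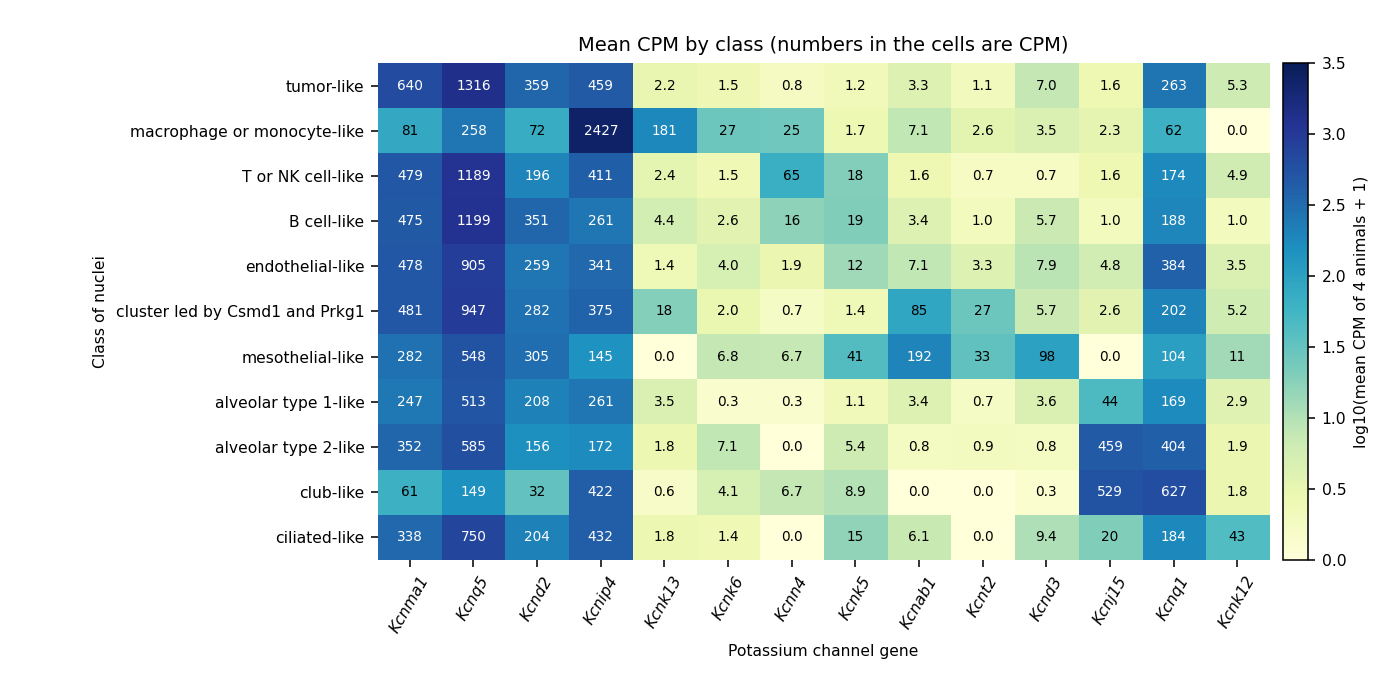
Mean level over 4 animals of 14 members in 10 classes of nuclei and the cluster led by Csmd1 and Prkg1; the color is log10 of mean CPM plus 1 and the number in each cell is the mean CPM. Kcnk13 and Kcnip4 stand out in macrophage or monocyte-like nuclei, Kcnj15 in club-like and alveolar type 2-like nuclei and Kcnn4 in T or NK cell-like nuclei.

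Kcnip4 reached its highest level outside the tumor, in macrophage-like nuclei, which was noted after the values were seen. It had 885, 3409, 2646 and 2767 CPM there, a mean of 2427 CPM against 459 CPM in tumor-like nuclei, and in each animal it was 3.79 to 14.6 times the tumor-like level of that animal. The cluster led by Chil3 held 3324, 4466, 3938 and 5315 CPM in 23, 108, 59 and 42 nuclei. The cluster led by Ms4a7 held 110.3, 1465, 983 and 1239 CPM. RP1, which had the lowest level in tumor-like nuclei, was thus close to the other animals in the Chil3 cluster and far below them in the Ms4a7 cluster. After thinning, 19.5% (11.6 to 29.7), 60.3% (52.0 to 68.1), 52.3% (42.5 to 61.9) and 47.3% (36.9 to 57.9) of macrophage-like nuclei had a Kcnip4 transcript (95% exact binomial intervals), and 29.3, 65.6, 64.2 and 52.7% without thinning. In endothelial-like nuclei the thinned shares were 3.53, 18.5, 14.9 and 20.1%, close to or below those of tumor-like nuclei, at median depths of 3208, 3284, 4136 and 2547 against 2421, 2306, 3550 and 2438 transcripts in macrophage-like nuclei.

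**Figure D5:**
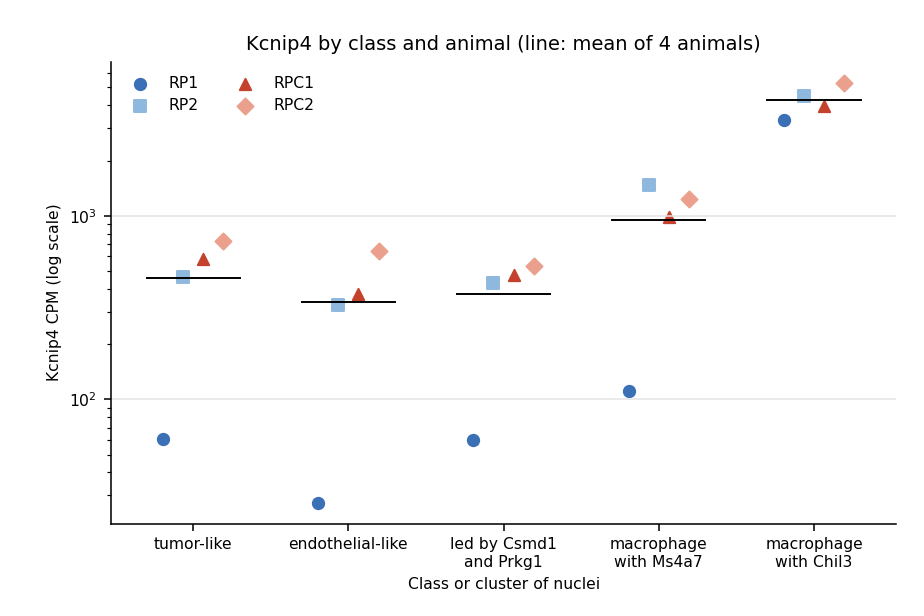
Kcnip4 per animal in tumor-like and endothelial-like nuclei, in the cluster led by Csmd1 and Prkg1 and in the 2 clusters of macrophage or monocyte-like nuclei; the vertical axis is CPM on a log scale and lines are means of 4 animals. In the macrophage cluster led by Chil3 all 4 animals lie between 3324 and 5315 CPM, while RP1 is lowest in every class and cluster shown, down to 27.4 CPM in endothelial-like nuclei.

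The same comparison of genotypes was made in endothelial-like nuclei (93, 154, 90 and 170), a class that is no part of the tumor. With edgeR 0 of 35 members had an adjusted p under 0.05 (0.104% of 9647 genes), and at an unadjusted p 4 were higher in RPC (5.85% of genes) and 2 lower (7.03% of genes). Kcnma1 had 279, 182, 565 and 931 CPM after TMM scaling, with a log2 fold change of 1.71 (SE 0.31, edgeR adjusted p = 0.11). DESeq2 gave Kcnma1 a log2 fold change of 1.74 (SE 0.34) and an adjusted p of 0.0002619, its 1 call among 36 members (0.128% of genes were called higher and 0.234% lower). Kcnh1 had 106, 133, 30.2 and 51.3 CPM (log2 fold change -1.53, edgeR adjusted p = 0.13). Both genes thus had in this class the order of genotypes they had in tumor-like nuclei. The neuroendocrine markers also summed to more in the endothelial-like nuclei of the RPC animals (4226 and 4959 CPM) than in those of the RP animals (3264 and 2935 CPM), and their part in these values was not tested. With each animal left out in turn, the log2 fold change of Kcnma1 in endothelial-like nuclei stayed between 1.32 and 2.04. In macrophage-like nuclei 0 of 22 members had an edgeR adjusted p under 0.05 (0.0% of 6533 genes), DESeq2 gave 0 as well (0.0429% of genes higher and 0.257% lower), and at an unadjusted p 0 were higher and 1 lower (4.27 and 5.53% of genes). That member was Kcnip1, with 178, 174, 44.8 and 56.6 CPM (-1.82, edgeR adjusted p = 0.16). Counts of calls in both classes with an animal left out are not given, since the lone animal is then assumed to vary like the other genotype.

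Whether the genotype difference itself differed between tumor-like and endothelial-like nuclei was tested with the interaction of class and genotype, with the animal as a block. Of 68 members, 1 had an adjusted p under 0.05 with edgeR (0.44% of 19097 genes). It was Kcnq1, with 221, 220.3, 351 and 254 CPM in tumor-like nuclei (log2 fold change 0.46) and 515, 349, 431 and 292 CPM in endothelial-like nuclei (-0.25). The difference was 0.69 on the log2 scale (SE 0.18, adjusted p = 0.032). The adjusted p was 1.0 without RP1 (difference 0.33), 0.18 without RPC1 (0.73), 0.91 without RPC2 (0.68) and 0.002087 without RP2 (0.98). Kcnq1 overlaps Kcnq1ot1 on the opposite strand, which had 517, 552, 497 and 394 CPM in tumor-like nuclei, and since the strand used in counting was not given in the sources used here, reads of the pair cannot be told apart. For Kcnma1, Kcnd2 and all other members tested, a difference between the classes was not detectable in this fit.

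Genes that work with potassium channels but are not members were tested in the same fit. Of 24 such genes 21 were tested, 0 had an edgeR adjusted p under 0.05, and 2 were higher and 2 lower at an unadjusted p (7.45 and 7.7% of all genes). Among accessory subunits, Amigo1, a partner of Kcnb channels, had 13.8, 15.3, 6.56 and 6.80 CPM (log2 fold change -1.12, SE 0.22, edgeR adjusted p = 0.27), and DESeq2 gave an adjusted p of 0.005922. Abcc8, given above with Kcnj11, was higher in both RPC animals by 0.48 (SE 0.15). The hyperpolarization-gated channel Hcn3 had 10.2, 6.42, 4.58 and 4.21 CPM (-0.92, SE 0.33). Of the pump and cotransporter genes, Atp1b1, the beta subunit of the sodium-potassium pump, had 105, 98.8, 298 and 156 CPM (1.16, SE 0.32), with adjusted p values of 0.28 by edgeR and 0.04994 by DESeq2.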

How the data were processed

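Single nuclei of fresh-frozen lung tumors of 4 mice were profiled by split-pool barcoding (Parse). The authors aligned the reads to GRCm39 and deposited, per animal, counts of transcripts per nucleus and gene, not normalized. Members and gene lists were chosen with earlier results of these data known. Nuclei with at least 300 transcripts, at most 10% mitochondrial transcripts and at most 12000 genes were kept. Clusters came from 2000 variable genes without Kcn, mitochondrial and Rn18s-rs5 genes. Settings were 20 principal components, 20 neighbors, Leiden resolution 0.4 and seed 1 (leidenalg 0.10.2, scikit-learn 1.9.0). Non-tumor candidates were clustered again at a resolution of 1, and clusters were named by 14 marker lists. Non-tumor clusters were named by a median log2 fold of a list of at least 1. Tumor-like ones had at most 0.5 for every non-tumor list and a neuroendocrine level above that of the pooled named non-tumor nuclei. Rules on depth were set after clusters were seen, and all names are reconstructions. Non-tumor clusters above 3 times the depth of their animals stay unnamed. Clusters below 0.5 times stay unnamed if they are tumor candidates or have at most 1 marker of their best list among their 10 leading genes. A B cell-like cluster of 176 nuclei at 0.475 times kept its name. No doublet caller was run, and the effect of leaving out nuclei above 4 times the median count was computed instead.

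Counts were summed per animal and class and tested two-sided in edgeR 4.0.16 (quasi-likelihood F test, TMM, filterByExpr, R 4.3.3), with Benjamini-Hochberg adjustment over all genes. The SE was taken as |log2 fold change| over the root of F. DESeq2 1.42.0 was an alternative, as were other scalings, filters, clusterings, sublibraries and leaving out each animal. Scripts were tested on simulated data. Depth is given for all nuclei kept and for tumor-like, endothelial-like and macrophage-like nuclei, not for the other classes. Intervals cover counting error only.

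Named genes were Kcnd2, members at an unadjusted p under 0.05, the 10 highest per 10 kb and 3 highest by CPM, members whose highest animal is at least 4 times the next, and up to 2 per non-tumor class of at least 50 nuclei with at least 20 transcripts there and 2 times the tumor-like level in every animal with 20 nuclei. Other members are given as context or said to be picked once values were known. Some genes that this rule names, and some sequences, are not reported here.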

Additional observations from a re-analysis of the deposited data

Results flagged for a closer look

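The response of Kcnq1, a voltage-gated pore subunit, to genotype differed between classes of nuclei by a test of the difference itself. On the log2 scale the RPC over RP change was higher by 0.69 in tumor-like than in endothelial-like nuclei (SE 0.18, edgeR interaction, adjusted p = 0.032). The 2 RPC animals had 351 and 254 CPM of Kcnq1 in tumor-like nuclei against 221 and 220.3 CPM in the RP animals, while in endothelial-like nuclei the animals overlapped (515, 349, 431 and 292 CPM). The call was lost without RP1, RPC1 or RPC2 and without the filter on low counts (0.58, adjusted p = 0.87). It was the 1 member called of 68, and 0.44% of all genes were called.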

How the results depend on the processing

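The animals of both genotypes are numbered 1 and 2, but nothing ties a number to a litter or batch, and same-numbered animals did not deviate together (correlation across genes of -0.04 in tumor-like, 0.09 in endothelial-like and -0.08 in macrophage-like nuclei). With the number as a replicate block, added after the data were seen, members with an adjusted p under 0.05 were 0 in tumor-like, 4 in endothelial-like (2.99% of genes) and 0 in macrophage-like nuclei. In the same fit, members at an unadjusted p in tumor-like nuclei were 6 higher and 2 lower (5.99 and 6.53% of genes). In tumor-like nuclei the number of members with an adjusted p under 0.05 was 0 in every edgeR setting and leave-one-out fit run (0 to 0), and 1 with DESeq2. At an unadjusted p the members higher in RPC went from 3 of 71 to 8 of 93 without the filter on low counts. The share of all genes higher was 7.45% with the filter and 6.18% without it. Members higher were 3 to 8 when each animal was left out. The members lower went from 3 to 1 with DESeq2, RLE size factors or at least 500 counts per nucleus. In these settings 3.61, 7.56 and 7.68% of all genes were lower, against 7.7% in the main fit. Members lower were 0 to 7 when each animal was left out. Members whose animals did not overlap were 21 to 25 higher and 25 to 31 lower with an animal left out, where a lone animal makes an overlap less likely. The share of all genes is not given for these fits, so the counts do not set the members apart. With all animals, 19.7% of members were higher and 16.9% lower without overlap, against 24.8 and 25.6% of all genes. In the fits with an animal left out, the lone animal is assumed to vary like the other genotype. In endothelial-like nuclei the count at an adjusted p under 0.05 went from 0 to 1 with DESeq2 (0.362% of genes) and to 6 without the filter (1.53% of genes). In macrophage-like nuclei it went to 2 without the filter (0.513% of genes). The count of the interaction test went from 1 to 0 without the filter (0.158% of genes). Members found in at least 10% of tumor-like nuclei were 19 after thinning and 31 without. The log2 fold change of Kcnmb2 reversed to -0.18 without RPC2 and ran from there to 3.05 with an animal left out. Of 177 comparisons of the log2 fold changes of 12 genes with an alternative, 175 kept direction and side of the threshold, 1 passed it (Kcnma1 with DESeq2) and 1 reversed. With no member past the threshold in the main fit, keeping the side says little about how stable a gene was. The size moved more. With an animal left out, the log2 fold change ran from 0.62 to 2.57 for Kcnd2 and from 0.46 to 3.36 for Kcnip4. The cause of these changes was not tested. With 2 animals per genotype and a biological coefficient of variation of 0.28, small differences cannot be shown.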
